A study of Mus musculus with 10 samples.

Results

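The class II antigen presentation pathway and its transactivator Ciita were followed in IFNγ-treated tumour cells as 10 named genes. They were the rows whose Ensembl identifiers carry the symbols Ciita, H2-Aa, H2-Ab1, H2-Eb1, Cd74, H2-DMa, H2-DMb1, Lgmn, Ctss and Ifi30, 10 of the 60676 rows of the count table. Class II molecules carry peptides from the endosomes to the cell surface, where CD4+ T cells read them. The α and β chains assemble on the invariant chain Cd74, endosomal proteases cut Cd74 down to a short fragment in the peptide groove, and H2-DM swaps that fragment for another peptide. Dendritic cells, macrophages and B cells express the pathway constitutively, whereas other cells, tumour cells among them, switch it on when IFNγ induces Ciita.

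The libraries came from MC38, a mouse colon adenocarcinoma line, and B16, a mouse melanoma line, both of C57BL/6 origin. Every group carried a knockdown of syndecan-1 (Sdc1), a transmembrane heparan sulphate proteoglycan, and had received IFNγ at 10 ng/ml for 24 h. MC38 had 3 groups of 2 libraries: the sdc1 knockdown alone, the knockdown with a c30 mutant and the knockdown with an ect mutant. B16 had 2 groups of 2, the sdc1 knockdown alone and the knockdown with sdc1 wt. The labels do not describe c30 or ect further, and neither unmodified cells nor cells kept from IFNγ were analysed here. The promoter that drives each re-expressed form is not stated, and separate cultures are not mentioned for the libraries of a group, so the p-values speak only for library-to-library spread, possibly a technical one.

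Levels are in CPM, the gene's count divided by the library's total and scaled in the usual way, and log2 fold changes come from edgeR's quasi-likelihood fit, in which a gene was called at a Benjamini-Hochberg adjusted p under 0.05 over all genes tested. Totals ran from 11349447 to 15041133 counts, so that a count of 0, taken as allowing 3 counts per library, limits a level to between 0.20 and 0.264 CPM. Sdc1 stood at 24.5 to 29.99 CPM in the MC38 knockdown, 97.01 to 99.5 CPM with c30, 22.4 to 25.2 CPM with ect, 40.7 to 43.1 CPM in the B16 knockdown and 56.9 to 71.1 CPM with wild-type Sdc1. The ect libraries thus overlapped the MC38 knockdown in Sdc1 counts. Melanocyte genes (7 markers) summed to 13499 to 14271 CPM in B16 and to 6.33 to 12.9 CPM in MC38. Epithelial genes (7 markers) summed to 9.14 to 16.8 CPM in MC38, where 1 of the 7 reached 1 CPM in every library and Cdh1 led at a mean of 9.42 CPM, so that most epithelial markers were nearly absent. Leukocyte and antigen-presenting cell genes (21 markers) summed to 15.3 to 16.6 CPM in B16 and 29.6 to 36.5 CPM in MC38, with Zbtb46 the highest in both lines, followed by Cd14 and Lyz2 in MC38 and by Lyz2 and Coro1a in B16. Of these 21, 2 reached 1 CPM in every library of each line, and 5 in MC38 and 4 in B16 reached it in at least 1 library. Cd3e and Ms4a1 had 0 counts in all 10 libraries, Itgax at most 1, Ptprc at most 6 and Tyrobp at most 2, and Csf1r held 3 to 12.

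The largest differences in these genes lay between the lines. Of the 10 genes, 9 passed the filter on low counts and 8 were called higher in the B16 knockdown than in the MC38 knockdown, against 33.8% of all 16877 genes called higher and 68.2% called either way, and 0 were called lower. The median log2 fold change of the 9 was 2.44, and that of all genes tested was -0.0098. The peptide-binding chains stood at 28.9-fold to 89.9-fold, Cd74 at 18.6-fold, Ciita and H2-DMa at 5.20-fold and 5.42-fold, H2-DMb1 at 2.32-fold and Lgmn at 1.30-fold. Line and everything that goes with it cannot be told apart in these samples.

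**Figure D1:**
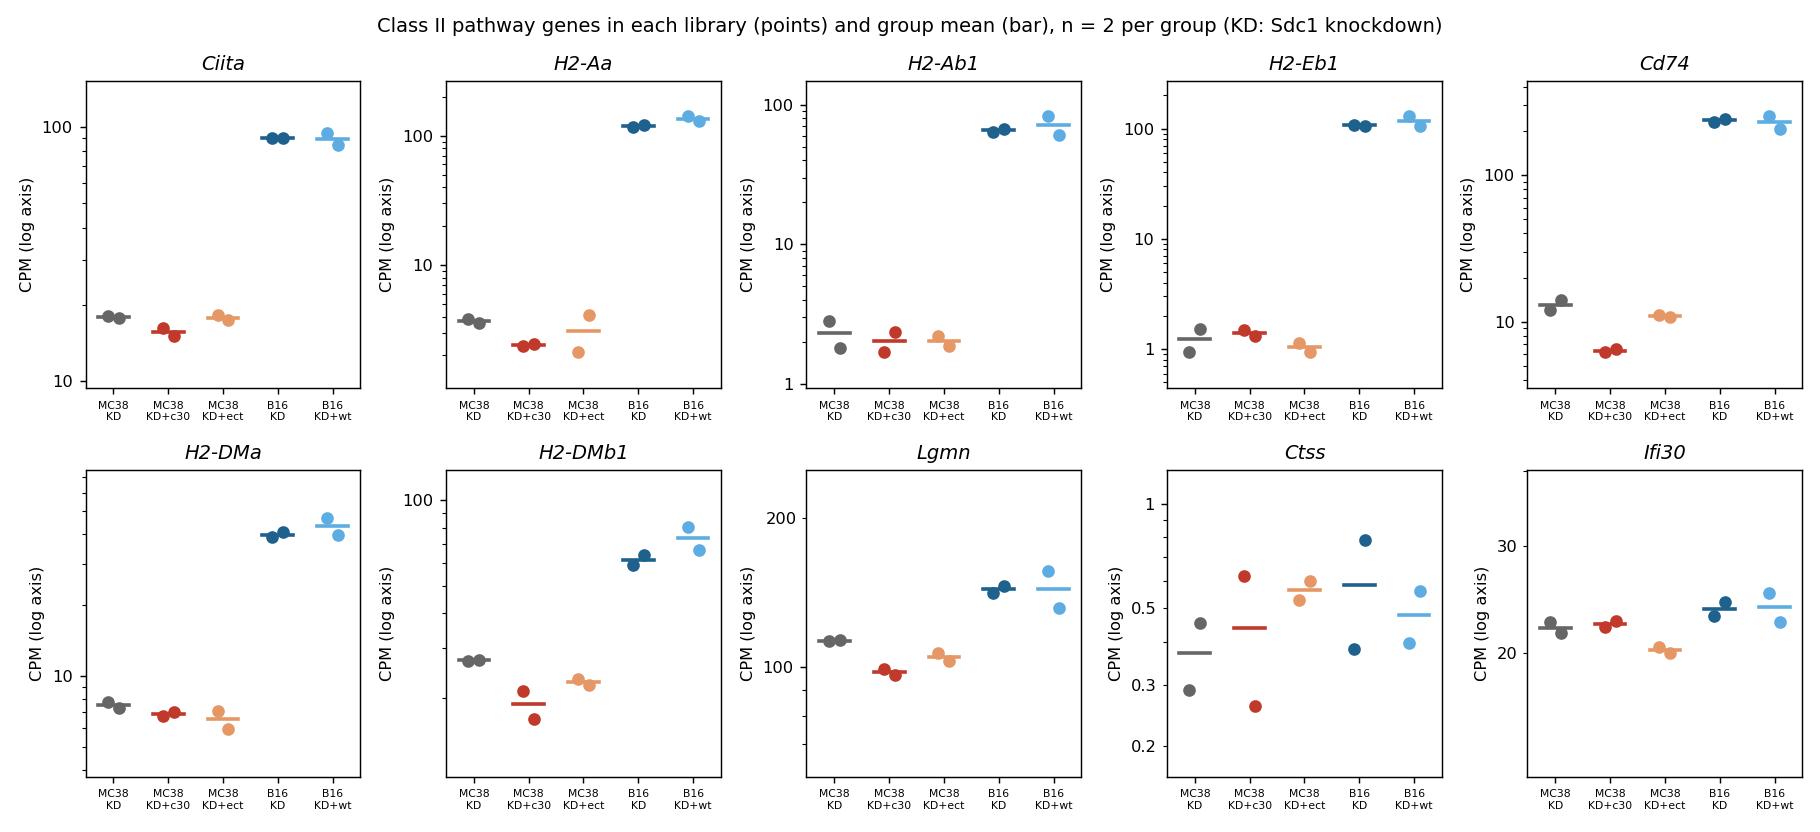
Level of each of the 10 class II pathway genes in every library (points, CPM on a log axis) with the group mean (bar) for the 3 MC38 and 2 B16 groups, 2 libraries each. The B16 points lie above all MC38 points for Ciita, the H2 genes, Cd74 and Lgmn, the c30 points are the lowest for Cd74, and Ctss stays between 0.261 and 0.783 CPM throughout.

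Ciita (ENSMUSG00000022504.11), the non-DNA-binding factor that switches on class II genes, stood at 18.0 and 17.7 CPM in the MC38 knockdown, 16.2 and 15.1 CPM with c30 and 18.2 and 17.4 CPM with ect. In B16 it stood at 90.2 and 90.5 CPM in the knockdown and at 94.3 and 84.9 CPM with wild-type Sdc1. The knockdown and ect ranges overlapped in MC38, both c30 libraries lay just under them, and the wild-type libraries lay on either side of the B16 knockdown. The log2 difference between the lines was 2.38 (SE 0.10, edgeR adjusted p = 7.31e-18). Ciita has several promoters with different first exons, and a count per gene does not separate their transcripts. Of its union of exons, 3.45% overlaps Dexi on the other strand in the GENCODE M21 models, and the sources used here do not state whether the counting used strand.

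The peptide-binding chains had few counts in MC38 and 763 or more counts in every B16 library. H2-Aa (ENSMUSG00000036594.16), the α chain of I-A, held 53 and 47 counts in the MC38 knockdown, 27 and 28 with c30 and 24 and 62 with ect, or 2.11 to 4.12 CPM over the 6 libraries. In B16 it stood at 117 and 122 CPM in the knockdown and 141 and 130 CPM with wild-type Sdc1, and the difference between the lines was 5.05 on the log2 scale (SE 0.14, edgeR adjusted p = 4.81e-22). All B16 libraries were thus far above all MC38 libraries, and ect replicate 1 was the lowest and ect replicate 2 the highest of the MC38 libraries. H2-Ab1 (ENSMUSG00000073421.7), the β chain of I-A, ranged from 1.67 to 2.83 CPM over the MC38 libraries, with all MC38 groups overlapping. It ranged from 60.9 to 82.6 CPM over the B16 libraries, both ends in the wild-type group, and the line difference was 4.85 (SE 0.19, edgeR adjusted p = 2.61e-18).

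H2-Eb1 (ENSMUSG00000060586.12), the β chain of I-E, had the largest line difference of the 9 genes tested. It held 13 and 20 counts in the MC38 knockdown, 17 and 15 with c30 and 13 and 14 with ect, or 0.931 to 1.51 CPM, and the exact 95% Poisson intervals of all 6 libraries overlapped (0.502 to 1.61 CPM for knockdown replicate 1 and 0.921 to 2.33 CPM for knockdown replicate 2). In B16 it stood at 109 and 106 CPM in the knockdown and 129 and 106 CPM with wild-type Sdc1. The log2 difference between the lines was 6.49 (SE 0.17, edgeR adjusted p = 8.57e-23). In the C57BL/6 strain the partner α chain, H2-Ea, is known to be silent through a promoter deletion, and its row held at most 2 counts in any B16 library and 0 in every MC38 library. Relative to H2-Aa inside a library, H2-Eb1 stood at 81.4 to 92.95 counts per 100 H2-Aa counts in B16 and at 22.6 to 63.0 in MC38, a span that rests on 13 to 20 counts of H2-Eb1 per MC38 library.

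The promoters of these genes carry short elements at fixed spacing, the X box bound by the RFX complex and the Y box bound by NF-Y, on which Ciita docks. The 3 promoters shown are those among the 10 genes in which the letters of both elements were found in order. RefSeq promoter windows (build GRCm38.p6, the 250 bases before the annotated start) were held for 7 of the 10 genes, and the search covered both strands for the letters CTNGNAAC (X box) and TGATTGG (Y box), which do not overlap each other. The letters were chosen after these promoters had been read. Below, capitals mark both elements and each line ends at the last base before the annotated start. H2-Aa lies on the minus strand at chr17:34287824-34287933, H2-Eb1 on the plus strand at chr17:34305757-34305866 and H2-DMb1 on the plus strand at chr17:34153081-34153190.
H2-Aa: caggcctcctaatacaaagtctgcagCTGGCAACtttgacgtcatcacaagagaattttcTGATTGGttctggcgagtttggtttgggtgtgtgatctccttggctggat
H2-Eb1: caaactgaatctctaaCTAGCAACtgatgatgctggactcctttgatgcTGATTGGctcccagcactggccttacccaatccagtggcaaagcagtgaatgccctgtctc
H2-DMb1: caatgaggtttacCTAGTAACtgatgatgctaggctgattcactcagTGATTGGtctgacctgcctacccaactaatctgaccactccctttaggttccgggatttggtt

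The X box letters came before the Y box letters on the gene's strand in these 3 promoters, with 26 bases between them in H2-Aa, 25 in H2-Eb1 and 26 in H2-DMb1. Over all 32851 windows of this length, 10.9% held the X box letters, 7.23% the Y box letters and 0.14% held both in this order on the gene's strand. Since the letters were chosen from the promoters shown, these shares do not measure how unusual the matches are. H2-DMa, Lgmn, Ifi30 and Ctss did not hold these letters in their windows. H2-Ob, the β chain of the H2-DM inhibitor H2-O, held both X and Y box letters with 23 bases between them, and its row had at most 1 count in any library. Of the other class II windows searched, H2-DMb2 and H2-Oa held only the Y box letters, and H2-Eb2 held both in the reverse order. A match is a description of letters, and factor binding was not measured.

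Cd74 (ENSMUSG00000024610.17) stood at 12.05 and 14.1 CPM in the MC38 knockdown, 6.17 and 6.53 CPM with c30 and 11.1 and 10.8 CPM with ect. In B16 it stood at 229 and 243 CPM in the knockdown and 251 and 206 CPM with wild-type Sdc1. The c30 libraries were the lowest of all 10, the ect libraries lay between c30 and the knockdown, and the B16 groups overlapped. The log2 difference between the lines was 4.21 (SE 0.10, edgeR adjusted p = 1.98e-23). Set against Ciita inside each library, Cd74 had 254 and 268 counts per 100 Ciita counts in the B16 knockdown, 266 and 243 with wild-type Sdc1, 66.9 and 79.6 in the MC38 knockdown, 60.9 and 62.1 with ect and 38.0 and 43.4 with c30. These ratios were computed after the levels had been seen and were not tested.

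**Figure D2:**
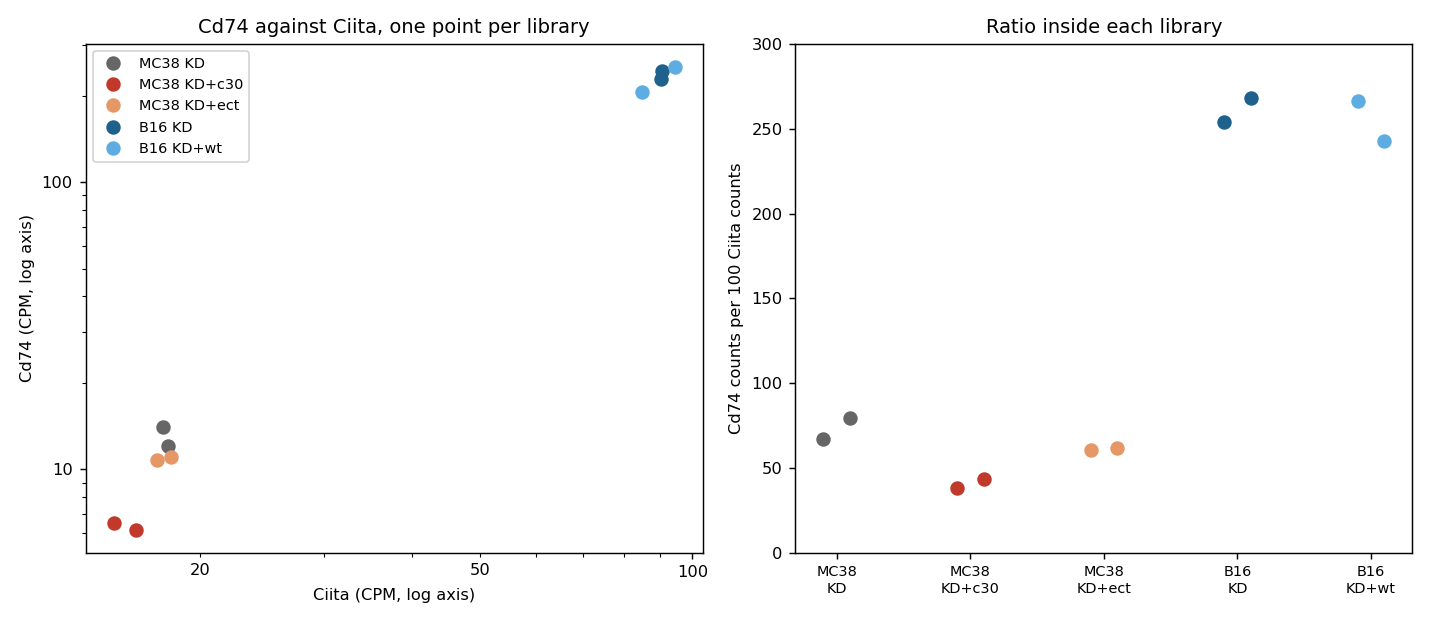
Left, Cd74 against Ciita in CPM (both log axes), 1 point per library. Right, Cd74 counts per 100 Ciita counts in each library, from 38.0 in c30 replicate 1 to 268 in B16 knockdown replicate 2, with every B16 library at 243 or above and every MC38 library at 79.6 or below.

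H2-DMa and H2-DMb1 encode the α and β chains of H2-DM, the peptide exchange factor. H2-DMa (ENSMUSG00000037649.11) ranged from 5.98 to 7.77 CPM over the 6 MC38 libraries and from 38.9 to 46.9 CPM over the 4 B16 libraries. The line difference was 2.44 on the log2 scale (SE 0.14, edgeR adjusted p = 9.19e-15), with no overlap between lines and with overlap between the B16 groups. Of its union of exons, 10.4% overlaps Brd2 on the other strand, so part of its counts is uncertain. H2-DMb1 (ENSMUSG00000079547.5) stood at 27.1 and 27.3 CPM in the MC38 knockdown, 21.2 and 16.9 CPM with c30 and 23.3 and 22.2 CPM with ect. In B16 it stood at 59.1 and 64.0 CPM in the knockdown and 80.3 and 67.1 CPM with wild-type Sdc1, and the line difference was 1.22 (SE 0.11, edgeR adjusted p = 1.60e-10). H2-DMb2, a close copy of H2-DMb1 whose reads the counting could share with it, held at most 10 counts in B16 and at most 1 in MC38.

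The endosomal enzymes differed least between the lines. Lgmn (ENSMUSG00000021190.15), the asparaginyl endopeptidase legumain that takes part in early cuts of Cd74, stood at 113.0 and 113.3 CPM in the MC38 knockdown, 99.0 and 96.5 CPM with c30 and 107 and 103 CPM with ect. In B16 it stood at 141 and 146 CPM in the knockdown and 156 and 132 CPM with wild-type Sdc1, above all MC38 libraries, a log2 difference of 0.38 (SE 0.075, edgeR adjusted p = 6.14e-05). Ifi30 (ENSMUSG00000031838.11), the thiol reductase GILT that opens disulphide bonds of antigens, ranged from 19.9 to 22.5 CPM in MC38 and from 22.5 to 25.1 CPM in B16. Its log2 difference between the knockdown groups was 0.14 (95% interval -0.11 to 0.39, edgeR adjusted p = 0.30) and did not pass. When all groups of a line were averaged, a comparison added after seeing the data, Ifi30 passed at 0.19 (edgeR adjusted p = 0.0290). In that comparison 13258 of all 16877 genes were called in either direction, so such a pass was common. Of the exons of Ifi30, 8.66% overlaps 6330537M06Rik on the other strand.

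Ctss (ENSMUSG00000038642.11), cathepsin S, which makes the last cuts of Cd74 in dendritic cells and B cells, held 4 and 6 counts in the MC38 knockdown, 7 and 3 with c30, 6 and 9 with ect, 5 and 9 in the B16 knockdown and 5 and 7 with wild-type Sdc1. It did not pass the filter on low counts in either line and was not tested. Every library was at or above the floor of 3 counts, and all 10 exact 95% Poisson intervals overlapped, for example 0.0539 to 0.763 CPM in c30 replicate 2 and 0.358 to 1.49 CPM in B16 knockdown replicate 2. Ctsl, cathepsin L, which does this step in thymic epithelium, stood at 1339 to 1432 CPM in MC38 and at 276 to 307 CPM in B16, a log2 difference of -2.12 (SE 0.061, edgeR adjusted p = 9.51e-22).

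Scaled by the length of the longest coding transcript in GENCODE M21 (for Ifi30, of its longest transcript), the order of the genes also differed between the lines. In the B16 knockdown Cd74 led with 167 ± 6.96 CPM per kilobase (SD, n = 2), followed by H2-Aa with 106 ± 2.99, Lgmn with 72.1 ± 1.57 and H2-Eb1 with 64.4 ± 1.08. In the MC38 knockdown Lgmn led with 56.9 ± 0.0854 CPM per kilobase (SD, n = 2), followed by Ifi30 with 22.4 ± 0.633, H2-DMb1 with 19.4 ± 0.066 and Cd74 with 9.27 ± 1.02. These neighbours were further apart than their SDs, which rest on 2 libraries each and so are imprecise. With wild-type Sdc1 in B16, Lgmn (72.3 ± 8.71) and H2-Eb1 (70.4 ± 9.54) were closer than their SDs. H2-DMa, H2-Aa and Ciita lay next in the MC38 knockdown at 3.76 ± 0.161, 3.28 ± 0.191 and 2.97 ± 0.0345 CPM per kilobase, and H2-Eb1 and Ctss were the lowest at 0.734 ± 0.239 and 0.274 ± 0.0844. With the length of the union of exons H2-Aa had rank 5 in place of rank 2 in the B16 knockdown. Lgmn then had rank 2 in place of 3, H2-Eb1 3 in place of 4, H2-DMb1 4 in place of 6 and H2-Ab1 6 in place of 5. In the MC38 knockdown Ciita had rank 6 and H2-Aa rank 7, the reverse of their order above. These places depend on the length used.

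The wider pathway was a list of 35 genes, of which 29 passed the filter on low counts in the fit of both lines. Between the knockdown groups 15 were called higher and 5 lower in B16, against 33.8% of all genes higher and 34.3% lower. Of the 7 partners of Ciita (Rfx5, Rfxap, Rfxank, Nfya, Nfyb, Nfyc and Creb1), 0 were called. Their log2 differences ran from -0.16 (Nfya, edgeR adjusted p = 0.0511) to 0.44 (Rfxank, adjusted p = 0.0715). Nfya was the 1 partner with an unadjusted p under 0.05 (0.0349), and DESeq2 called 0 of the 7. Over all groups, Nfya ranged from 118 to 137 CPM in the MC38 libraries and from 100 to 111 CPM in the B16 libraries. Rfxank ranged from 5.19 to 6.86 CPM in MC38 and from 7.26 to 8.70 CPM in B16. The lines did not overlap in Nfya or Rfxank and overlapped in the other partners, and the share of all genes without overlap was not counted. Of 9 genes upstream of Ciita, 5 were higher in B16, among them Jak2 at 0.71 (SE 0.093), Ifngr2 at 0.65 (SE 0.10), Irf1 at 0.55 (SE 0.061) and Usf1 at 0.37 (SE 0.088). Jak1 (-0.17) and the ligand-binding receptor chain gene Ifngr1 (-1.32, SE 0.11) were lower. Ifngr1 stood at 37.7 to 43.2 CPM in MC38 and 15.99 to 17.96 CPM in B16.

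Of 10 lysosomal genes, 8 were higher in B16, including the protease gene Ctsd (1.67, SE 0.078) and the cathepsin inhibitor gene Cst3 (1.56, SE 0.13), and Ctsl and Ctsh (-2.55, SE 0.11) were lower. Over all genes, 33.8% were called higher and 34.3% lower. Mif, which encodes a ligand of Cd74, had 1.28 (SE 0.21), Marchf8, a ubiquitin ligase that can act on class II molecules, had 0.75 (SE 0.071), and Cd44, a coreceptor of Cd74, had -0.22 (SE 0.064), all called. The other class II genes H2-Ea, H2-Eb2, H2-DMb2, H2-Oa and H2-Ob did not pass the filter, nor did Marchf1.

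**Figure D3:**
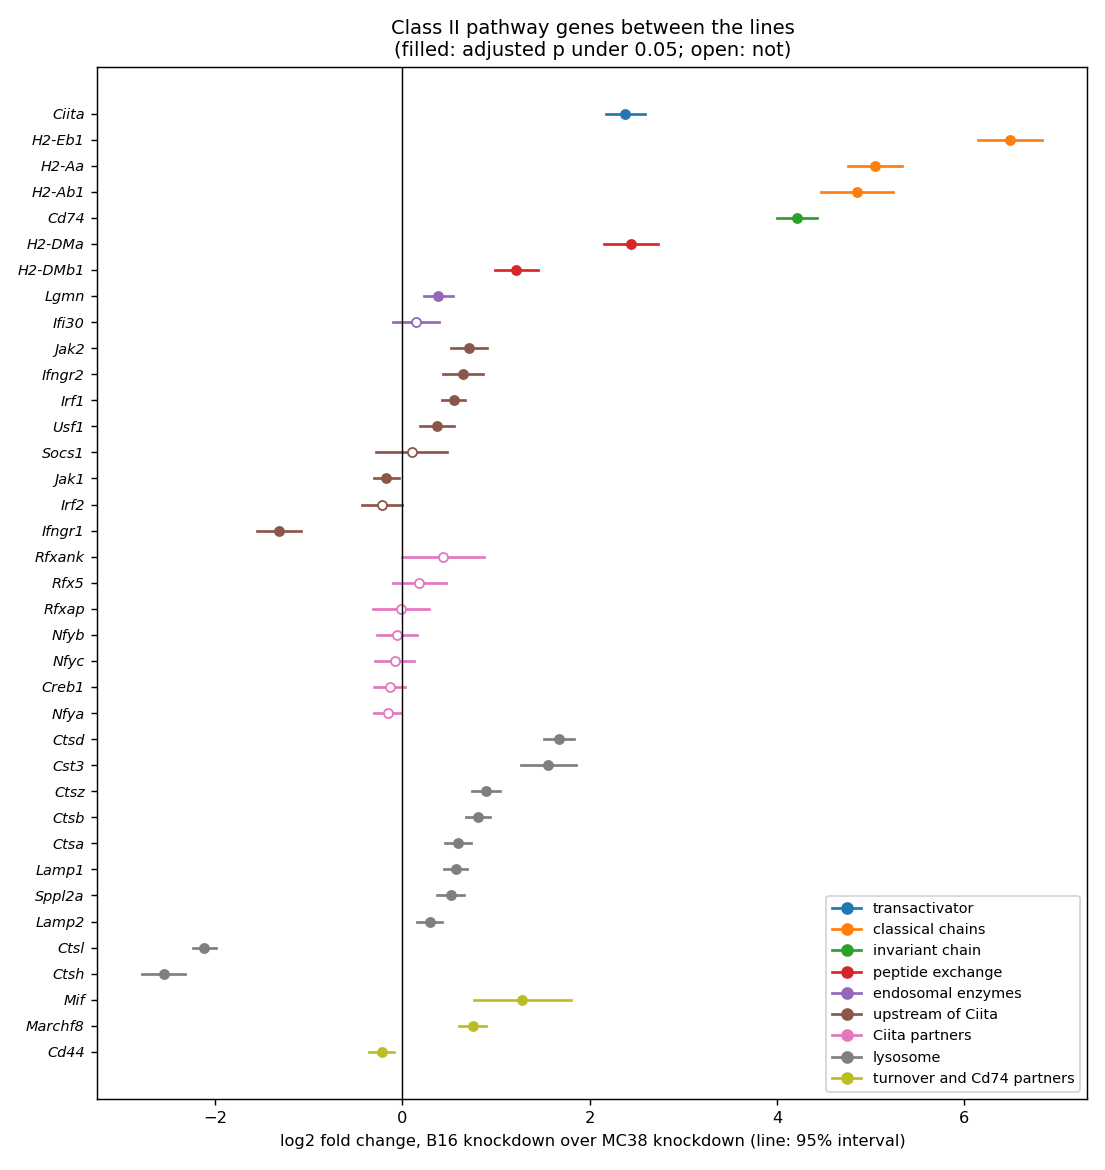
Log2 fold change of the B16 knockdown over the MC38 knockdown for the class II pathway genes and genes of the wider list, by role (points), with 95% intervals of the edgeR fit (lines); filled points were called. The peptide-binding chains lie between 4.85 and 6.49, Ciita at 2.38, and all 7 partners of Ciita between -0.16 and 0.44 with open points.

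Melanocyte transcripts were also counted in the MC38 libraries. Tyrp1 and Dct together stood at 9847 CPM on average in B16 and at 0.0754 to 5.14 CPM in MC38, the highest in c30 replicate 2, which is 0.0522% of the B16 mean. The same share of the B16 level would be 0.121 CPM for Cd74 and 0.0587 CPM for H2-Eb1 in that library, and the measured levels there were 6.53 and 1.31 CPM. Whether these transcripts came from B16 material or from MC38 cells was not tested.

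With the c30 form in MC38, 3 of the 9 genes tested fell and 0 rose, against 4.45% of all 15031 genes called lower and 7.75% called either way. These were Cd74, H2-DMb1 and Lgmn. The median log2 fold change of the 9 was -0.20, and that of all genes was 0.0013. Cd74 fell by 1.03 on the log2 scale (SE 0.18, edgeR adjusted p = 1.23e-05), a 2.05-fold lower level, and both c30 libraries were below both knockdown libraries. Leaving out any library of the groups compared kept its call (log2 fold change -1.15 to -0.92, edgeR adjusted p 4.68e-05 to 0.00339). H2-DMb1 fell by 0.51 (SE 0.12, edgeR adjusted p = 0.00191), but without c30 replicate 2 the value was -0.37 (edgeR adjusted p = 0.161). Lgmn fell by 0.21 (SE 0.059, edgeR adjusted p = 0.0159) and was not called without c30 replicate 1 (0.118), without c30 replicate 2 (0.142), with DESeq2 (0.0926) or with all 10 libraries in the fit (0.213).

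Ciita itself had a log2 fold change of -0.19 with c30 (95% interval -0.45 to 0.077, edgeR adjusted p = 0.473) and did not pass. H2-Aa had -0.61 (95% interval -1.25 to 0.032, edgeR adjusted p = 0.282) and did not pass. Both of its c30 libraries lay under both knockdown libraries, at 27 to 53 counts, and the share of all genes in such an order was not counted. H2-Ab1 had -0.20 (95% interval -0.96 to 0.56) and H2-Eb1 0.20 (-0.80 to 1.20), wide intervals at 13 to 39 counts a library. H2-DMa had -0.12 (95% interval -0.53 to 0.29) and Ifi30 0.024 (-0.21 to 0.26). Leukocyte markers summed to 33.2 and 36.5 CPM with c30 and to 32.9 and 35.2 CPM in the knockdown, overlapping ranges. In bulk samples, fewer cells that express a gene and less RNA per cell cannot be told apart.

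With the ect form 0 of the 9 genes were called, against 8.16% of all genes called in either direction; edgeR gave 1 of them an unadjusted p under 0.05 and DESeq2 called 0 of the 4 to which it gave an adjusted p. Cd74 had a log2 fold change of -0.25 (95% interval -0.57 to 0.069, edgeR adjusted p = 0.40) and H2-DMb1 -0.25 (-0.48 to -0.025, edgeR adjusted p = 0.183). Ciita had 0.0015 (95% interval -0.25 to 0.26). Sdc1 itself had -0.17 with ect (95% interval -0.37 to 0.024), so these counts do not show how much of the ect form was made. The comparisons of c30 and ect share the knockdown libraries, so their values are not independent.

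Set directly against each other, c30 and ect differed in 1 of the 9 genes tested, Cd74, against 0.166% of all genes called lower and 0.299% called either way. Cd74 was lower with c30 by a log2 difference of -0.79 (SE 0.18, 95% interval -1.15 to -0.42, edgeR adjusted p = 0.0210), with both c30 libraries below both ect libraries. This call was lost when any of the 4 libraries was left out (without c30 replicate 1 adjusted p = 0.328, without c30 replicate 2 0.179, without ect replicate 1 0.101 and without ect replicate 2 0.0758), while the difference stayed between -0.84 and -0.73. With all 10 libraries in the fit the adjusted p was 0.0638. H2-DMb1 had -0.26 (95% interval -0.50 to -0.019, edgeR adjusted p = 0.523) and did not pass. Sdc1 itself was higher with c30 than with ect by 2.03 (SE 0.089, edgeR adjusted p = 5.29e-33). The form and the amount of Sdc1 RNA therefore differed together and cannot be told apart in this comparison.

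Of the wider list in MC38, 4 genes fell and 2 rose with c30, against 4.45% of all genes lower and 3.3% higher. Sppl2a, which encodes the intramembrane protease that clears the last fragment of Cd74, had -0.24 (SE 0.058), Ctsd -0.24 (SE 0.062), Lamp2 -0.19 (SE 0.047) and Irf1 -0.17 (SE 0.044), and Mif had 0.24 (SE 0.054) and Nfya 0.18 (SE 0.056). DESeq2 did not call Ctsd or Nfya here, nor Ctsd with ect. With ect 6 fell and 2 rose, against 4.61% lower and 3.55% higher. All 6 lower genes were lysosomal: Sppl2a (-0.33, SE 0.058), Ctsa (-0.38, SE 0.055), Ctsd (-0.23, SE 0.061), Lamp1 (-0.21, SE 0.043), Lamp2 (-0.21, SE 0.047) and Ctsb (-0.18, SE 0.043). Mif (0.20, SE 0.053) and the feedback inhibitor gene Socs1 (0.58, SE 0.12) were higher. Sppl2a stood at 126 and 123 CPM in the knockdown, at 106 and 104 CPM with c30 and at 95.6 and 102 CPM with ect. Between c30 and ect it was not called (log2 difference 0.084, SE 0.059, edgeR adjusted p = 0.734). Ctsa differed between the forms directly (0.29 higher with c30, SE 0.056, edgeR adjusted p = 0.00168).

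With wild-type Sdc1 in B16, 0 of the 9 genes and 0 of the 29 wider genes were called, against 0% of all 14336 genes. Sdc1 itself was not called either (log2 fold change 0.64, SE 0.12, edgeR adjusted p = 0.269), so a missing call here does not show a missing change. Over all genes edgeR gave 791 an unadjusted p under 0.05, 2 of the 9 genes and 0 of the 29 among them, and DESeq2 called 11 genes, with 0 of the 9 and 0 of the 29. The 9 genes had a median log2 fold change of 0.15, against 0.00031 for all genes. H2-DMb1 had 0.29 (95% interval 0.048 to 0.53, edgeR adjusted p = 0.877) and H2-Aa 0.21 (0.024 to 0.40, adjusted p = 0.877), and neither passed. The wild-type range of each of these genes was higher than its knockdown range without overlap. The share of all genes in such an order was not counted. Ciita had 0.015 (95% interval -0.18 to 0.22) and Cd74 -0.018 (-0.24 to 0.20).

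The wild-type libraries differed from each other, and replicate 1 was above replicate 2 in each of the 9 genes tested, as it was in Sdc1 (71.1 and 56.9 CPM). How many of all genes shared this order was not counted. Without wild-type replicate 2, 4 of the 9 genes were called higher, among 177 genes called higher of 15024 tested: H2-DMb1 (0.40, edgeR adjusted p = 0.00189), H2-Ab1 (0.35, 0.00964), H2-Eb1 (0.28, 0.0135) and H2-Aa (0.26, 0.0196). Without wild-type replicate 1 the same genes had 0.16, -0.076, 0.015 and 0.16, and 0 of the 9 were called, among 1295 genes called either way of 15073 tested. The part of the Sdc1 level in this was not tested.

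**Figure D4:**
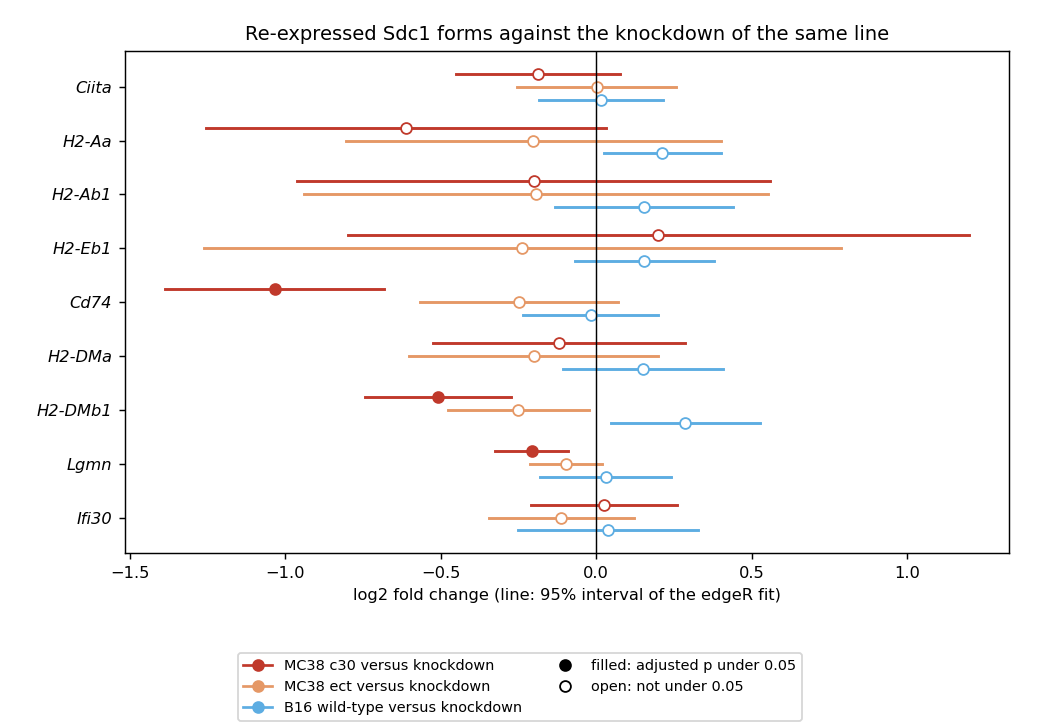
Log2 fold change of each Sdc1 form against the knockdown of its own line for the 9 genes tested (points) with 95% intervals of the edgeR fit (lines); filled points had an adjusted p under 0.05. The filled points are Cd74, H2-DMb1 and Lgmn with c30, and the widest intervals belong to H2-Eb1 in MC38, from -0.80 to 1.20 with c30.

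The difference between the effect of wild-type Sdc1 in B16 and that of c30 in MC38 was tested directly over all 10 libraries. It passed for Cd74 and H2-DMb1 and for 0 of the 29 wider genes, against 0.284% of all genes; edgeR gave 5 of the 29 an unadjusted p under 0.05 and DESeq2 called 0 of them. The B16 effect exceeded the MC38 effect by 1.02 for Cd74 (SE 0.17, edgeR adjusted p = 0.00414) and by 0.80 for H2-DMb1 (SE 0.16, adjusted p = 0.0209). For H2-Aa the difference was 0.82 (SE 0.27, adjusted p = 0.224) and for Ciita 0.20 (95% interval -0.10 to 0.50). The form, the line and the size of the Sdc1 change differed together, so they cannot be told apart. Sdc1 had a log2 fold change of 1.86 with c30 in MC38 and of 0.64 with wild-type Sdc1 in B16. Its own difference of effects was -1.22 (SE 0.15, edgeR adjusted p = 0.000143). The number of the 9 genes that passed ranged from 0, without MC38 knockdown replicate 2 (14 of 17962 genes called), to 4, without B16 wild-type replicate 2 (375 of 18091 genes called).

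The genes nearest to Cd74 in pattern were those with the smallest root mean square difference in log2 CPM over the libraries of a line, each gene centred on its own mean, among named genes of at least 5 CPM. Over the 6 MC38 libraries they were C4b (0.0747), a complement component, then Serpinb1a (0.137), Prelp (0.138), Oas1b (0.145) and S1pr1 (0.147), out of 9852 candidates, while Cd74 itself spanned 1.19 on the log2 scale. For Ciita, which spanned 0.27, they were Itgb5 (0.0146), Sntb2 (0.0199), Hexdc (0.0214), Zbtb1 (0.0235) and Bst2 (0.0240). Over the 4 B16 libraries, where Cd74 spanned 0.27, the nearest were Kif26b (0.00575), Trim28 (0.00624), Plxnb2 (0.00653), Mgrn1 (0.00789) and Rcc2 (0.00931). A span this small over 4 libraries leaves many genes near. The Ciita span in MC38 was as small and rests on 173 to 261 counts a library, and no MC38 comparison called Ciita, so its neighbours may share little beyond flatness.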

How the data were processed

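The deposited table holds raw counts per gene for 10 libraries. Per the labels' protocols, TRIzol-extracted RNA went into mRNA libraries that were read as pairs on an Illumina instrument. Trimmomatic, HISAT2 2.0.5, HTSeq, featureCounts, DESeq2 and build GRCm39 are named, with no roles, in the submitters' processing notes; annotation release, strand setting and treatment of reads with several matches are not given in the sources used here. Symbols were matched by Ensembl identifier for 51884 of 60676 rows (3496 are loci named XLOC). No column was left out.

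The quasi-likelihood test of edgeR 4.0.16 (R 4.3.3; 2-sided) was run on the counts with TMM factors and robust dispersions, after filterByExpr had set the filter on low counts. Gene lengths came from GENCODE M21 and promoters from RefSeq, both on GRCm38, and no GRCm39 coordinates are printed. The MC38 comparisons shared a fit of 6 libraries, the B16 comparison used 4, and comparisons across lines used all 10. TMM factors lay between 0.972 and 1.02. Standard errors and 95% intervals are from the fits; library levels and SDs are CPM of the library total. Poisson intervals and floors cover counting error only. The tests were checked on simulated counts. All 10 genes were to be named, then called genes of the wider list. A gene of the wider list and a marker gene enter the counts and sums and are not reported here by name. Members and lists were chosen with earlier results of these data known. Alternatives were RLE size factors, no filter on low counts, DESeq2 1.42.0, replicate number as a block, other samples in the fit and leaving out each library; averaging the groups of a line and a crossed block were added after seeing the data.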

Additional observations from a re-analysis of the deposited data

Results flagged for a closer look

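The effect of the re-expressed Sdc1 form differed between the lines for Cd74 and H2-DMb1, by a direct test of the difference over all 10 libraries. For Cd74 the B16 wild-type effect minus the MC38 c30 effect was 1.02 on the log2 scale (edgeR adjusted p = 0.00414), with both c30 libraries below both MC38 knockdown libraries and the B16 groups overlapping. For H2-DMb1 it was 0.80 (edgeR adjusted p = 0.0209), with both c30 libraries below their knockdown and both wild-type libraries above theirs. Without MC38 knockdown replicate 2 neither passed (edgeR adjusted p = 0.111 and 0.13). Cd74 also did not pass without c30 replicate 1 (edgeR adjusted p = 0.0657). H2-DMb1 also did not pass without MC38 knockdown replicate 1 (0.158), c30 replicate 2 (0.271), B16 knockdown replicate 1 (0.101) or B16 knockdown replicate 2 (0.0668, all edgeR adjusted p). Over the 8 libraries left out in turn the differences ranged from 0.87 to 1.16 and from 0.65 to 0.96. The share of all genes whose groups were ordered as for Cd74 or H2-DMb1 was not counted. Form, line and the size of the Sdc1 change cannot be told apart.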

How the results depend on the processing

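The 8 calls between lines held with RLE factors, no filter, DESeq2, a replicate block, the knockdown libraries alone and without each knockdown library. With single libraries left out, genes called among the 10 numbered 1 to 3 for c30, 0 to 0 for ect, 0 to 0 for c30 against ect, 0 to 4 in B16 and 0 to 4 for the difference of effects; c30 against ect also gave 0 with all 10 libraries and 0 with DESeq2, which gave Cd74 no adjusted p. All genes called in the c30 comparison numbered 513 with DESeq2, 254 with all 10 libraries and 464 to 992 without single libraries, against 1165. For ect they numbered 600, 249 and 776 to 984, against 1227, and for c30 against ect 19, 8 and 18 to 44, against 45. In B16 they numbered 42 with no filter, 11 with DESeq2, 27 with all 10 libraries and 3 to 1295 without single libraries, against 0, the 1295 without wild-type replicate 1. For the difference of effects they numbered 159 with no filter, 77 with DESeq2 and 13 to 1096 without single libraries, against 48. The cause of these shifts was not tested.

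Signs of uncalled values turned in 30 recomputed log2 fold changes. Ciita with ect had -0.0085 with no filter and -0.00044 with all 10 libraries, against 0.0015. All other turns came from leaving out a library. With c30 H2-Ab1 ranged from -0.49 to 0.16, H2-Eb1 from -0.10 to 0.57 and Ifi30 from -0.0094 to 0.051. With ect Ciita ranged from -0.043 to 0.045, H2-Aa from -0.79 to 0.16, H2-Ab1 from -0.48 to 0.16 and H2-Eb1 from -0.54 to 0.13. Between c30 and ect H2-Aa ranged from -0.77 to 0.17, H2-Ab1 from -0.28 to 0.23 and H2-DMa from -0.057 to 0.21. In B16 Ciita ranged from -0.056 to 0.080, H2-Ab1 from -0.076 to 0.35, Cd74 from -0.16 to 0.11, Lgmn from -0.091 to 0.14 and Ifi30 from -0.036 to 0.10. For the difference of effects H2-Ab1 ranged from -0.0058 to 0.64, H2-Eb1 from -0.41 to 0.25 and Ifi30 from -0.069 to 0.094.

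Same-numbered libraries gave no sign of pairing: correlations of their deviations were -0.012 to 0.0092 in MC38 and -0.11 in B16. Whether such libraries had been handled together was not tested. With replicate number as a block the calls among the 10 genes were 3 for c30, 0 for ect, 1 for c30 against ect, 0 in B16, 8 between lines and 2 for the difference of effects, and B16 had 15 calls over all genes. With the numbers crossed, tried after seeing the data, B16 had 5. In MC38 the peptide-binding chains rest on 13 to 62 counts a library, which limits their precision.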
